A study of Zea mays with 36 samples.

Results

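The genes of meristem size, branching and WUSCHEL-type control fea2, BA1, ns2 and wox13B were followed in the maize shoot apical meristem (SAM) against the above-ground seedling. They were found by name: every probe whose gene annotation, as symbol or synonym in any letter case, was one of these names was taken. The rule uses no measured value, but the 4 names were picked with earlier results of these data known. The 4 genes, of 740 named on the 2 slide sets together, had 6 probes among 30329 probes with values. On the first slide set 3 of 582 named genes were members, on 4 of 18302 probes, and on the second 2 of 455 named genes, on 2 of 12027 probes. ns2 was on both sets, BA1 and wox13B on the first alone, and fea2 on the second alone.

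The SAM is a small dome of dividing cells at the shoot tip that renews itself while leaf primordia form on its flank. In plants a signalling route of CLAVATA type, made of small peptides and leucine-rich-repeat receptors, holds the number of stem cells in check, and WUSCHEL-type homeobox (WOX) proteins promote stem cells or the outgrowth of organ margins. fea2 (fasciated ear2) encodes a leucine-rich-repeat receptor-like protein of the CLAVATA route, and its loss enlarges the ear meristem. BA1 (barren stalk1) encodes a basic helix-loop-helix protein needed to form axillary meristems, from which branches, tassel spikelets and ears arise. ns2 (narrow sheath2) is a WOX gene that recruits the cells of the leaf margin, and it acts with its near-duplicate ns1. wox13B carries the name of the WOX13 branch of the family.

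RNA of SAM and of seedlings was compared, both from plants of the inbred line B73 at 14 days. The SAM group was RNA from pools of 6 to 10 meristems cut out by laser with the P0 and P1 leaf primordia, and the seedling group was RNA from pools of 6 above-ground seedlings of the same plant batch. The 6 biological replicates gave 1 slide each on both sets, with 3 scans per slide, and SAM RNA carried Cy3 in replicates 1, 3 and 5 and Cy5 in replicates 2, 4 and 6. The captured tissue holds young leaf cells beside the meristem, and the seedling RNA includes meristem RNA. RNA of the 2 groups was extracted by different procedures, so that extraction and tissue cannot be told apart, and about 10 ng was amplified with T7 polymerase before labelling.

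Values are log2 ratios of the 2 channels, set to 0 at the median of each scan, and their precision is limited by the number of arrays. The numerator tissue is not given in the sources used. The photosynthesis genes had medians of −5.71 (11 genes) and −5.48 (12 genes) on the 2 sets, so a positive ratio is called the likely SAM side and a negative one the likely seedling side. The log base is likewise inferred: the deposited values were read as natural logs, and if they are log2 already, fea2 would lie at 1.30, BA1 at −0.78 and ns2 on set 1 at 0.59, with smaller folds than those given and the same adjusted p. On the first set 9 of the 11 photosynthesis genes passed below 0, and PSBQ (0.26) did not pass. Cab-m7, a chlorophyll-binding protein gene, passed above 0 there, at 1.09 (limma adjusted p = 0.00546). On the second set all 12 passed below 0, with Cab-m7 at −4.28 and PSBQ at −6.07. Slides correlated positively over all probes, with r between 0.86 and 0.90 within a dye orientation on the first set and 0.70 to 0.86 across orientations. On the second set r was 0.85 to 0.90 within and 0.60 to 0.74 across. A source label gives seedling for both dyes in the high scan of replicate 4 on slide set 1, and the sample name was followed instead. Without it BA1 lay at −1.14, ns2 at 0.86 and wox13B at −0.06. Epidermal marker genes had medians of 0.43 (4 genes) and 0.14 (3 genes), and vascular marker genes −2.18 (4 genes) and −0.79 (2 genes). Both lists were split: on set 1 gl8 (−2.38) and ocl4 (1.22) of the epidermal list passed on opposite sides, and so did the sucrose synthase genes sus1 (−2.60) and sh1 (0.53) of the vascular list. On set 2 sus1 and sh1 again passed on opposite sides (−2.27 and 0.68). Of the epidermal list ocl4 passed there at 2.24 (limma adjusted p = 0.000268), while ocl1 (0.14) and ocl3 (−0.15) did not pass. The part of these marker genes in the members' values was not tested. In such bulk RNA fewer cells of a type and less RNA per cell cannot be told apart.

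The members spread over both sides. fea2 lay on the likely SAM side on every slide, BA1 on the likely seedling side on every slide, and wox13B on neither. ns2 passed its test toward the SAM side on the first set and did not pass on the second.

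**Figure D1:**
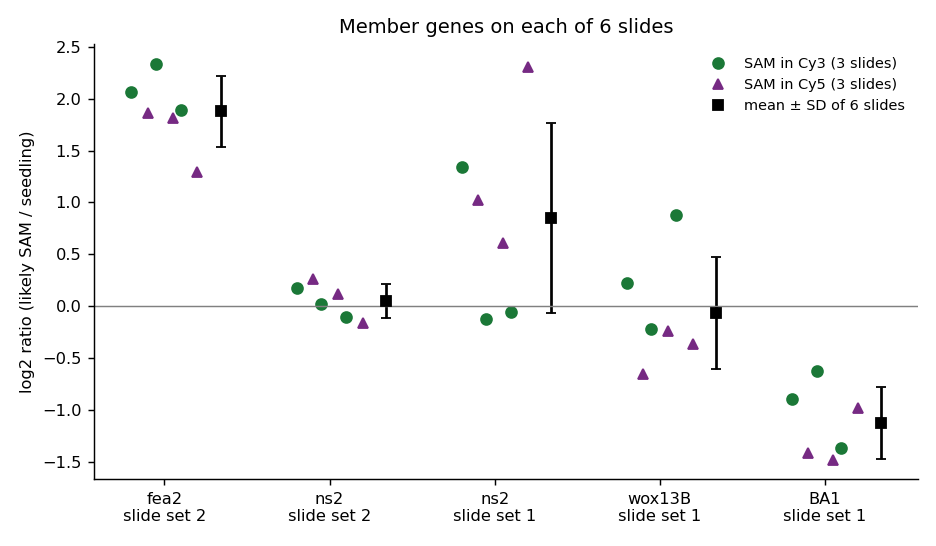
Log2 ratio (likely SAM over seedling, vertical axis) of each member gene on each of 6 slides, with circles for SAM in Cy3, triangles for SAM in Cy5 and squares for the mean ± SD. All 6 slides of fea2 lie above 0 and all 6 of BA1 below it, whereas ns2 on slide set 1 runs from −0.12 to 2.30.

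fea2 was measured by 1 probe of the second set. With SAM in Cy3 its log2 ratio was 2.06, 2.34 and 1.89 in replicates 1, 3 and 5, and with SAM in Cy5 it was 1.87, 1.82 and 1.30 in replicates 2, 4 and 6. All 6 slides were positive, replicate 6 was the lowest, and the orientations did not overlap, with every Cy3 slide above every Cy5 slide by a narrow margin (1.89 against 1.87). The mean was 1.88 ± 0.34 (SD, n = 6), a 3.68-fold higher level on the likely SAM side with a 95% interval of 3.06 to 4.42. The limma adjusted p was 8.11e-06 over the named genes and 2.98e-05 over all probes, of which 64.6% passed. On this set 27.9% of named genes passed on the SAM side, and 73.6% passed in either direction, so that a call by itself does not set fea2 apart. Its ratio was higher than that of 97.1% of named genes and 95.3% of probes.

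The 3 scans of a fea2 slide lay between 0.13 and 0.41 apart on the log2 scale. No scan of any slide was below 1.03, the high scan of replicate 6. The dye term, by which SAM in Cy3 lay above and SAM in Cy5 below their common mean, was 0.22 (limma adjusted p = 0.262), with means of 2.10 for SAM in Cy3 and 1.66 for SAM in Cy5. Dye terms passed for 3.3% of the named genes of the set. fea2 was the sole measured gene of 23 names searched for meristem size genes of the CLAVATA type and their cytokinin-linked partners, so its peptide ligands, partner receptors and downstream proteins are not described here.

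BA1 was measured by 1 probe of the first set. Its log2 ratio was −0.90, −0.62 and −1.37 with SAM in Cy3 and −1.42, −1.48 and −0.99 with SAM in Cy5. Every slide was negative, and the orientations overlapped. The mean was −1.13 ± 0.35 (SD, n = 6), a 2.19-fold higher level on the likely seedling side (95% interval 1.75 to 2.73), with a limma adjusted p of 0.000348 over the named genes and 0.000517 over all probes, of which 62.5% passed. On this set 45.2% of named genes passed on the seedling side and 72.3% in either direction, and 26.6% of named genes had a lower ratio than BA1. The scans of a slide lay within 0.10 to 0.45 of each other, and the dye term was 0.17 (adjusted p = 0.416).

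ns2 was measured by 1 probe on each set, and both probes are annotated to the same sequence record. On the first set its log2 ratio was 1.34, −0.12 and −0.05 with SAM in Cy3 and 1.02, 0.61 and 2.30 with SAM in Cy5. Replicates 3 and 5 lay near 0 and replicate 6 above the others, and the orientations overlapped. The mean was 0.85 ± 0.92 (SD, n = 6), a 1.80-fold higher level on the likely SAM side (95% interval 1.10 to 2.94), with a limma adjusted p of 0.0372. SAM-side calls made up 27.1% of named genes on this set. The SD of ns2 was larger than that of 83.3% of named genes.

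The high value of replicate 6 came mainly from 1 scan. The low scan of that slide read 4.28, the medium scan 1.36 and the high scan 1.26, whereas the scans of the other slides lay 0.29 to 0.40 apart. Without that low scan, a choice made after seeing the data, the mean was 0.68 with an adjusted p of 0.0305. Without the whole of replicate 6 the mean was 0.60 (limma adjusted p = 0.0845), and without replicate 1 it was 0.61 (adjusted p = 0.099). The call was also lost without replicate 2 (0.92) or replicate 5 (0.96). The means of the orientations were 0.39 for SAM in Cy3 and 1.31 for SAM in Cy5, and the dye term was −0.46 (adjusted p = 0.314).

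**Figure D2:**
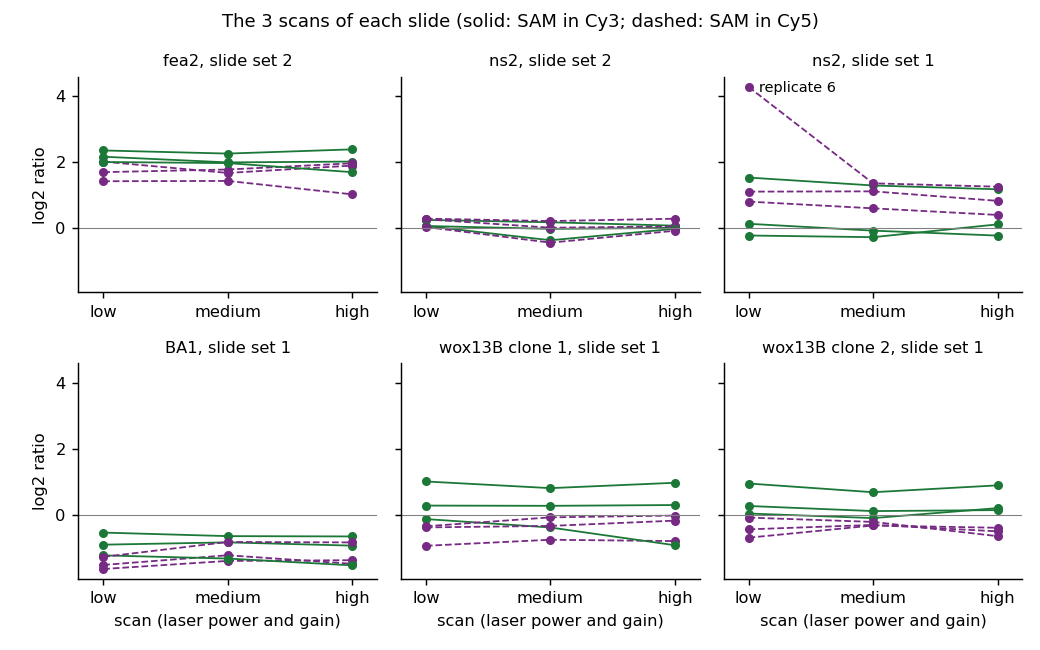
Log2 ratio (vertical axis) in the low, medium and high scan (horizontal axis) of each slide, 1 panel per member probe, with solid lines for SAM in Cy3 and dashed lines for SAM in Cy5. In the ns2 panel of slide set 1 the low scan of replicate 6 stands at 4.28 above its other 2 scans at 1.36 and 1.26.

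On the second set the log2 ratio of ns2 was 0.17, 0.02 and −0.10 with SAM in Cy3 and 0.27, 0.12 and −0.16 with SAM in Cy5. The mean was 0.05 ± 0.16 (SD, n = 6) with a 95% interval of −0.16 to 0.27 and a limma adjusted p of 0.61. The spread over slides was small there, since 7.69% of named genes had a smaller SD. The same 6 RNA pairs were used on both sets. Replicates 1, 2 and 4 were positive and replicate 5 negative on both, replicates 3 and 6 differed in sign, and replicate 6 read 2.30 on set 1 against −0.16 on set 2. The 2 tables were normalized separately, so no test was made between them. RNA of the near-duplicate ns1 could bind the same cDNA, and the ns2 values are uncertain in this respect.

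wox13B was measured by 2 clones of the first set. As their mean, its log2 ratio was 0.22, −0.22 and 0.88 with SAM in Cy3 and −0.66, −0.24 and −0.36 with SAM in Cy5. Replicates 1 and 5 were positive and the other 4 slides negative, and the orientations did not overlap, by a narrow margin (−0.22 against −0.24). The mean was −0.06 ± 0.54 (SD, n = 6), the 95% interval ran from −0.45 to 0.32, and the gene did not pass (limma adjusted p = 0.714). The orientations had means of 0.29 and −0.42, and the dye term was 0.36 (adjusted p = 0.18).

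The clones of wox13B gave similar values slide by slide. The first read 0.27, −0.84, −0.49, −0.16, 0.92 and −0.31 in replicates 1 to 6, with a mean of −0.10 ± 0.62 (SD, n = 6). The second read 0.17, −0.48, 0.04, −0.32, 0.83 and −0.42, with a mean of −0.03 ± 0.50 (SD, n = 6). Both were highest in replicate 5 and lowest in replicate 2, and they differed in sign in replicate 3 alone. Neither passed over all probes (limma adjusted p = 0.693 and 0.86). The clones shared slides and RNA, so they are not independent replicates.

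Members were compared with each other within a slide. BA1 lay below ns2 and wox13B in 6 of 6 slides each, with mean differences of log2 ratios of −1.98 ± 0.96 (SD, n = 6) and −1.06 ± 0.66. Both had an exact two-sided sign-flip permutation p of 0.0313, the smallest that 6 slides allow, and 0.0469 after adjustment over the 12 pairs of the set. ns2 was above wox13B in 5 of 6 slides, by 0.91 ± 1.25, which did not pass (exact permutation p = 0.125, adjusted 0.15). On the second set fea2 lay above ns2 by 1.83 ± 0.31 in 6 of 6 slides (exact permutation p = 0.0313, adjusted 0.0438 over 7 pairs). These are differences between ratios, and they do not order the transcript levels of the genes within a tissue. The adjusted values passed narrowly and depend on how many pairs of a set reach the smallest p. Pairs with the comparison genes below are counted there, so whether a member pair passes rests partly on them.

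Genes known from the meristem served for comparison. kn1 (knotted1) is a homeobox gene that keeps cells undetermined, rs2 (rough sheath2) encodes a MYB repressor of knotted1-like genes in young leaves, and TE1 (terminal ear1) encodes an RNA-binding protein that restricts leaf initiation. Among all named genes TE1 had the highest mean on both sets (6.77 and 3.58), so every member's mean had to lie below it. The p values against TE1 therefore say little about the members, though its pairs enter the adjustment of the other pairs. fea2 and kn1 had means of 1.88 and 1.95 on the second set, with fea2 higher in 3 of 6 slides and slide differences from −0.56 to 0.21 (exact permutation p = 0.656, adjusted 0.656). The mean difference was −0.068, and 0.031 without replicate 6. That closeness rests on an average, since the 2 kn1 probes of the set read 4.06 and −0.17. fea2 exceeded rs2 in 5 of 6 slides, by 0.36 ± 0.37 (adjusted exact permutation p = 0.109), and lay below TE1 in 6 of 6 slides, with a mean difference of −1.71 ± 0.66 (adjusted exact permutation p = 0.0438).

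On the first set BA1 was below kn1, rs2 and TE1 in 6 of 6 slides, with mean differences of −1.42, −2.80 and −7.90. wox13B was below rs2 and TE1 in 6 of 6 slides, with differences of −1.74 and −6.83, and ns2 was below TE1 in 6 of 6, with a difference of −5.92. Each of these 6 had an adjusted exact permutation p of 0.0469, but the mean differences from TE1 could only be negative. The differences of ns2 from kn1 (0.55, adjusted p = 0.17) and rs2 (−0.82, adjusted p = 0.0833) and of wox13B from kn1 (−0.36, adjusted p = 0.313) did not pass in the same exact permutation test. On the second set ns2 was below kn1, rs2 and TE1 in 6 of 6 slides, with differences of −1.89, −1.47 and −3.53 (adjusted exact permutation p = 0.0438 each). The difference from kn1 rests on the average of its 2 probes, at 4.06 and −0.17. The ns2 mean of 0.05 lay below the first of these probes and above the second.

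**Figure D3:**
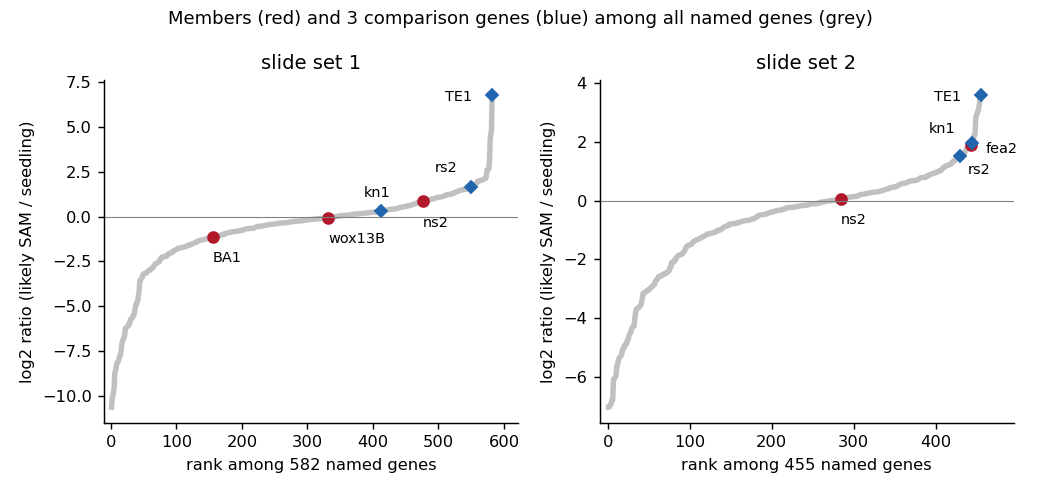
Mean log2 ratio (vertical axis) of all named genes in order of rank (horizontal axis, grey), with members as red circles and kn1, rs2 and TE1 as blue diamonds. fea2 stands above 97.1% of the 455 named genes of slide set 2 and BA1 above 26.6% of the 582 of slide set 1.

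The named genes with the nearest slide values were ranked by the root mean square difference over 6 slides, as a description. Nearest to fea2 among 453 genes were nfc101 (0.28), kn1 (0.30) and nfc102 (0.30). Nearest to BA1 among 579 genes were GAPC, a cytosolic glyceraldehyde phosphate dehydrogenase (0.28), aprl8 (0.30) and ABP3 (0.31). For ns2 they were cyc3 (0.42), KIN9 (0.47) and PDC (0.49) on set 1, and homeobox3 (0.13), tua3, an alpha tubulin (0.14), and MTK-4 (0.14) on set 2. For wox13B they were mbd109 (0.26), rop9 (0.29) and csu36b(rpL19) (0.31).

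Of 35 names searched for branching and inflorescence meristem genes, 8 were measured, all on the first set. Of these, 1 was called toward the SAM, 3 toward the seedling and 4 in neither direction, where 27.1%, 45.2% and, in either direction, 72.3% of all named genes of the set were called. Their median was −0.02, against −0.24 over all 582 named genes. The SAM-side gene was ra3 (ramosa3, a trehalose phosphate phosphatase that limits branching of the inflorescence), at 0.94 ± 1.15 (SD, n = 6, limma adjusted p = 0.00329). It read 2.39, 2.19 and 1.15 with SAM in Cy3 and −0.01, −0.25 and 0.16 with SAM in Cy5, so that the orientations did not overlap. Its dye term was 0.97 (adjusted p = 0.0421), and dye terms passed for 3.61% of the named genes of the set. The call of ra3 was lost with the medium scan alone (0.37, limma adjusted p = 0.178), with the high scan alone (0.34, 0.282) and with no dye term (0.0742).

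The seedling-side genes beside BA1 were tb1 (teosinte branched1, a TCP transcription factor that holds back axillary branches) at −0.76 ± 0.39 (SD, n = 6, limma adjusted p = 0.000838) and GT1 at −1.26 ± 0.64 (limma adjusted p = 0.000213). The 2 probes of tb1 disagreed, at −1.63 and 0.11, and only the first passed (limma adjusted p = 0.000399 and 0.428 over all probes). With SAM in Cy3 alone tb1 did not pass (−0.46, limma adjusted p = 0.052). GT1 was matched by name only, and without it 2 of 7 genes passed on the seedling side. The MADS-box genes ZAG1 and zap1 lay at −0.04 ± 0.40 and 0.35 ± 0.33, and the 5 probes of zap1 ran from −0.62 to 1.11. Over all probes, that at −0.62 passed toward the seedling (limma adjusted p = 0.0172). Those at 1.11 and 0.94 passed toward the SAM (limma adjusted p = 0.00209 and 0.031), and the rest did not pass. bd1 (branched silkless1, an ERF protein of spikelet meristem fate) lay at 0.48 ± 1.48 and lg2 (liguleless2, a bZIP protein) at 0.00 ± 1.66. None of these 4 genes passed as the mean of its probes (limma adjusted p = 0.81, 0.0522, 0.185 and 0.999), but 3 of them did in some alternatives. zap1 passed with the low scan alone (0.80), with the median of its probes (0.55), with a robust fit (0.35), without replicate 2 (0.46) and on the Cy3-labelled SAM slides alone (0.48). bd1 passed without replicate 2 (0.79) and on the Cy3-labelled SAM slides alone (1.63), and lg2 passed toward the seedling with the high scan alone (−0.73). The dye term of bd1 was 1.15 (limma adjusted p = 0.0708 over named genes and 0.0474 over all probes), with a mean of −0.68 with SAM in Cy5. That of GT1 was 0.52 (limma adjusted p = 0.0708 over named genes), with means of −0.74 with SAM in Cy3 and −1.78 with SAM in Cy5.

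**Figure D4:**
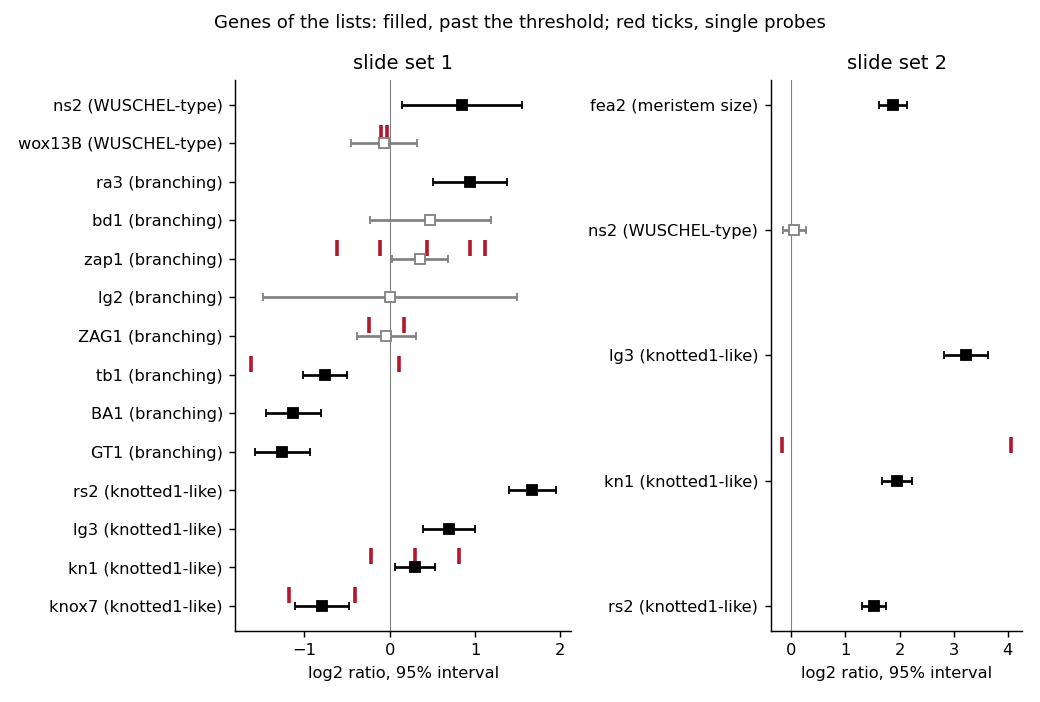
Mean log2 ratio with its 95% interval (horizontal axis) of the measured genes of the meristem size, WUSCHEL-type and branching lists and the knotted1-like genes described (knox3 and knox8 are not drawn), filled where the adjusted p is under 0.05, with red ticks for single probes of genes that have several. The probes of tb1 lie at −1.63 and 0.11 and those of kn1 on slide set 2 at 4.06 and −0.17.

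Of 29 WUSCHEL-type names searched, ns2 and wox13B were the measured genes. Of the knotted1-like genes and their repressor, the first set measured 4, with 3 called toward the SAM (27.1% of named genes) and 1 toward the seedling (45.2%). The second measured 5, with 4 called toward the SAM (27.9% of named genes) and 1 not called. kn1 read 0.30 ± 0.25 (SD, n = 6, limma adjusted p = 0.0322) on set 1 and 1.95 ± 0.37 (limma adjusted p = 8.46e-06) on set 2. The 3 kn1 probes of the first set ran from −0.22 to 0.81, with SDs of 0.60 to 0.77, above that of their mean. Dye terms of opposite sign passed for 2 of them, at 0.60 and −0.65 (limma adjusted p = 0.0332 and 0.0388 over all probes). The median of the probes gave −0.045 in place of the mean. The call of kn1 on that set was lost without replicate 1, 2, 3, 4 or 6 (limma adjusted p from 0.0631 to 0.101). It was also lost with SAM in Cy3 alone (0.13), with no dye term and with unnamed probes in the fit. rs2 read 1.67 ± 0.23 on set 1 and 1.52 ± 0.34 on set 2, and lg3 (liguleless3) read 0.70 ± 0.40 and 3.22 ± 0.77. knox7, measured on set 1, read −0.79 ± 0.37. These 3 genes passed (limma adjusted p from 4.49e-06 to 0.00261), of which lg3 (0.44) and knox7 (−0.58) lost the call on set 1 with SAM in Cy3 alone.

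Across 19 alternative settings on the second set fea2 passed in all 19, at 1.30 to 2.10, and across 21 on the first set BA1 passed in all 21, at −1.29 to −0.78. ns2 on the first set passed in 14 of 21, at 0.39 to 1.31. Not every setting could change a call. Reading the deposited values as log2, which gave the ends 1.30 and −0.78, only rescales them and keeps the adjusted p. The median of the probes leaves the ratio of a gene with 1 probe as it was. ns2 on the second set passed in 0 of 19, and wox13B in 0 of 21, by limma. In the fits as reported their unadjusted p was 0.573 and 0.697.

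**Figure D5:**
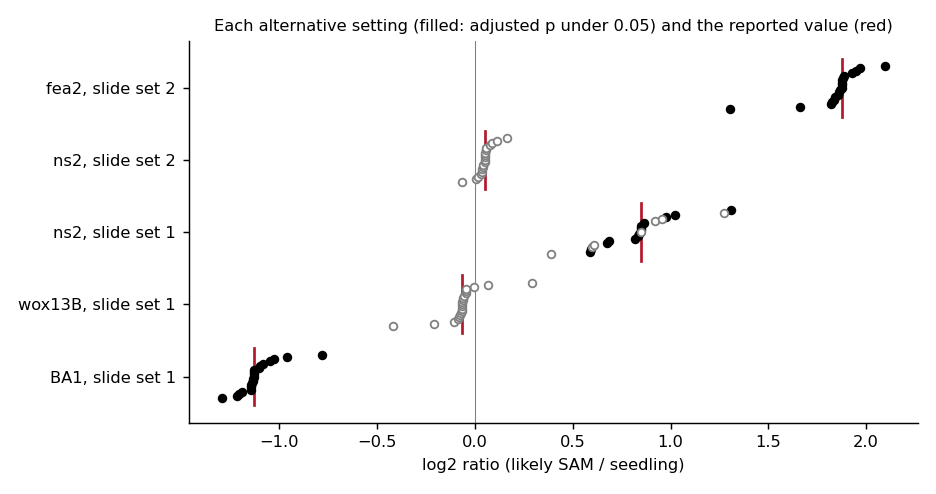
Mean log2 ratio (horizontal axis) of each member under every alternative setting, filled where the adjusted p is under 0.05, with a red line at the reported value. fea2 stays between 1.30 and 2.10 and BA1 between −1.29 and −0.78, while ns2 on slide set 1 ranges from 0.39 to 1.31.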

How the data were processed

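The values deposited by the authors are log ratios of the 2 channels of a scan, read here as natural log. No source used gives the base, which was inferred from few values. Repeated values above and below the value of spots with both channels at the scanner floor were paired. Turned back from a natural log, the difference of the paired values divided by 2 gave a whole number in 96 of 18036 pairs. For log2 the count was 4 and for log10 it was 0. Whole numbers up to 30 were tried, with a tolerance of 0.0002. For normalization, background and numerator, the method is not given in the sources used here. All columns ran the same way, and their medians lay within −0.08 and 0.06 log2 of 0.

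Here values were divided to log2, the median of each scan was subtracted, and 3 scans were averaged per slide. The first set had 19200 spots, 898 of them empty. The second had 14080, of which 2001 were empty and 53 identical ones counted as 1. Gene values are means of a gene's probes, and 23 probes naming several genes were not used. Of 583 and 510 gene IDs on the platforms, 562 and 491 were found in the gene table. The gene ID of wox13B was not among them, and its name is that of the platform. In R 4.3.3, limma 3.58.1 (lmFit, eBayes) was run with a mean and a dye effect, positive where SAM in Cy3 read higher, with Benjamini-Hochberg adjustment over the named genes, or over all probes, of a set, at a threshold of 0.05. Slide differences were tested by an exact two-sided sign-flip permutation test. Tables were handled in Python 3.11.15 with pandas 2.3.3 and numpy 2.4.6, and figures drawn with matplotlib 3.10.9. The scripts were tested on simulated data.

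The genes named are the members, each measured gene of the meristem size, WUSCHEL-type and branching lists, of the knotted1-like list the 3 with the smallest adjusted p in a set with kn1 and rs2, TE1, and the 3 nearest genes of each member. The members and lists were chosen with earlier results of these data known. Alternatives covered centring, spread, single scans, the dye term, each orientation, probe summary, the fitted features, the log base, floor spots and each replicate left out.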

Additional observations from a re-analysis of the deposited data

Results flagged for a closer look

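Among 25 groups of 6 slides 1 was flagged for a stray slide, where about 1 in 20 such groups has one by chance. Another flag, for a dye term, follows a separate rule to which that share does not apply. The branching gene ra3 differed between dye orientations on the first slide set, with a dye term of 0.97 (limma adjusted p = 0.0421). Its mean was 1.91 with SAM in Cy3 and −0.03 with SAM in Cy5. For the knotted1-like gene knox8 on the second set, which the rule for named genes leaves out and which is given because of this value, replicate 6 lay far above the others. The gap to the next slide was 0.766 of the whole range, above Dixon's critical value for 6 values. knox8 lay at 1.61 ± 1.27 (SD, n = 6, limma adjusted p = 0.00792), with a highest slide of 4.13, and at 1.14 without replicate 6 (limma adjusted p = 0.000414). These are averages of 2 probes, with means of 1.47 and 1.74 (limma adjusted p = 0.0779 and 0.00945 over all probes). Both probes were highest in replicate 6 (3.90 and 4.37). They disagreed in replicate 1 (3.14 and −0.95) and replicate 2 (−0.10 and 2.88).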

How the results depend on the processing

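fea2 and BA1 kept their direction and their call under every alternative run. No paired analysis was possible because each ratio is already the paired value of the SAM and seedling RNA of 1 replicate, which leaves no replicate block to fit. ns2 on the first set lost its call with the low scan alone (1.28), with no dye term (0.85) and with SAM in Cy3 alone (0.39), and as a probe also with the high scan alone (0.60). Leaving out 1 replicate at a time gave 0.60 to 1.02, and the call was lost without replicates 1, 2, 5 or 6. wox13B, which did not pass, turned sign with Cy3-labelled SAM alone (0.29). With 1 replicate left out it ran from −0.21 to 0.064, and its clones from −0.27 to 0.082 and from −0.15 to 0.046. ns2 on the second set turned with the medium scan alone (−0.067), as did its dye term (0.000212), which ran from −0.081 to 0.025 with 1 replicate left out. The difference of fea2 from kn1 turned to 0.031 without replicate 6. ZAG1 turned with the low (0.21) or medium scan alone (0.0028) and with SAM in Cy3 alone (0.16), and ran from −0.12 to 0.081 with 1 replicate left out. bd1 (−0.68) and ra3 (−0.031) turned with SAM in Cy5 alone, and kn1 on the first set with the median of its probes (−0.045). lg2 turned without centring (−0.0071), with the high scan alone (−0.73), with floor spots left out (−0.23), without the low scan of replicate 6 (−0.049, chosen after seeing the data) and with SAM in Cy5 alone (−0.12), and ran from −0.68 to 0.61 with 1 replicate left out. The causes were not tested. Precision is limited by the number of arrays, and ratios do not give signal over background.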
